A study of Homo sapiens with 6 samples.

Results

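The enzymes that write and erase N6-methyladenosine (m6A) on mRNA were read in RNA-seq counts of cells in which an m6A reader had been knocked down. The members were chosen by name, as the rows of the deposited count table for 10 listed genes: METTL3, METTL14, WTAP, RBM15, RBM15B, ZC3H13 and CBLL1 of the methyltransferase complex, the separate methyltransferase METTL16, and the demethylases FTO and ALKBH5. All 10 were found among 20030 genes, and all 10 had enough counts to be tested. The study compared NCI-H929 cells, labelled as a multiple myeloma line, with a genotype of IGF2BP1 knockdown (IGF2BP1-KD, 3 libraries) against the same line with the genotype IGF2BP1 NC, the negative control (IGF2BP1-NC, 3 libraries), called knockdown and control libraries here. Per the methods, stable lines were made with lentiviral short hairpin RNA (shRNA) and puromycin selection, and the knockdown vector is given with 2 target sequences without saying which the sequenced cells carried. The vector of the control cells is not given in the sources used here. Nothing in the labels says that the 3 libraries of a group came from separate cultures, so the p-values measure the spread between these libraries, which may be technical.

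m6A is placed on nascent mRNA by a heterodimer of METTL3, which holds the catalytic site, and METTL14, which helps bind the RNA. WTAP, ZC3H13, CBLL1 (also called HAKAI), VIRMA and the paralogs RBM15 and RBM15B form a larger regulatory part that positions the heterodimer in the nucleus and on its substrates. METTL16 works outside this complex on structured RNAs, FTO and ALKBH5 are iron- and 2-oxoglutarate-dependent dioxygenases that remove the methyl group, and IGF2BP1 is a reader that binds the methylated mRNA. The comparison asks whether the transcripts of the enzymes that set the mark differ when a protein that reads it is reduced. The level of m6A itself, and the proteins, were not analysed here.

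The targeted gene was checked before the members. IGF2BP1 had CPM values (counts scaled by library size with edgeR's TMM factors) of 431, 401 and 451 in IGF2BP1-NC libraries 1, 2 and 3 and 123, 117 and 115 CPM in IGF2BP1-KD libraries 1, 2 and 3. Its log2 fold change was -1.85 (95% interval -2.00 to -1.71), so that each library carried the IGF2BP1 level of its label. Total counts lay between 16885449 and 18112179 per library, and no pair of libraries was a copy, as each pair differed in at least 15036 genes. The labelled cell type was read from marker lists. Of 13 plasma cell markers, 7 had at most 3 counts in every library, among them CD38, TNFRSF17 and IRF4 and, at 0 counts throughout, CD27, and 3 were above 1 CPM in every library. They summed to 78.3 to 160 CPM in IGF2BP1-NC and 81.1 to 86.6 CPM in IGF2BP1-KD. Most of this was XBP1, with means of 102 and 71.6 CPM. Of the 5 that had enough counts to be tested, 1 was higher, SLAMF7 (means of 0.25 and 5.24 CPM). NSD2 and FGFR3, the genes that the t(4;14) of myeloma activates, were both expressed in every library. NSD2 had a mean of 308 CPM in IGF2BP1-NC and 325 CPM in IGF2BP1-KD, and FGFR3 had 115 and 63.0 CPM and was called lower. Most of the listed plasma cell markers were thus near 0. Whether the cells carry the t(4;14) was not tested, and expression of NSD2 and FGFR3 alone does not show it. NCI-H929 is used here as the name in the labels. All 12 erythroid markers were above 1 CPM in every library. The erythroid markers summed to 8255 to 10113 CPM in IGF2BP1-NC and 9191 to 10086 CPM in IGF2BP1-KD. Of the 12, 1 was higher and 5 were lower at an adjusted p under 0.05 by the edgeR test described below. Beside these and the other marker calls, 28.2% of all tested genes were called in the same test. The granulocyte and eosinophil markers summed to 26.7 to 37.2 CPM in IGF2BP1-NC and 198 to 497 CPM in IGF2BP1-KD, with 3 of the 4 tested of 7 higher, and the part of such lineage transcripts in the values below was not tested. In these bulk libraries, fewer cells of a type and less RNA per cell cannot be told apart.

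Of the 10 members, 2 were higher in IGF2BP1-KD cells (RBM15B and CBLL1), 2 were lower (FTO and RBM15), and 6 did not pass the test. Calls were made with edgeR's quasi-likelihood test at a Benjamini-Hochberg adjusted p under 0.05 over all 11994 genes tested, and the intervals given are 95% intervals of the log2 fold change from the same fit. In the same test, 28.2% of all tested genes were called, 13.7% higher and 14.5% lower, so the members' 4 of 10 lies near what all genes showed. IGF2BP1-KD and control libraries did not overlap for 4 of the 10 members, against 45.6% of all tested genes. No member was called with a change of at least 2-fold, where 4.73% of all genes were. The median log2 fold change over the members was 0.0050, beside -0.0048 over all tested genes, and the median absolute value was 0.089 beside 0.19.

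**Figure D1:**
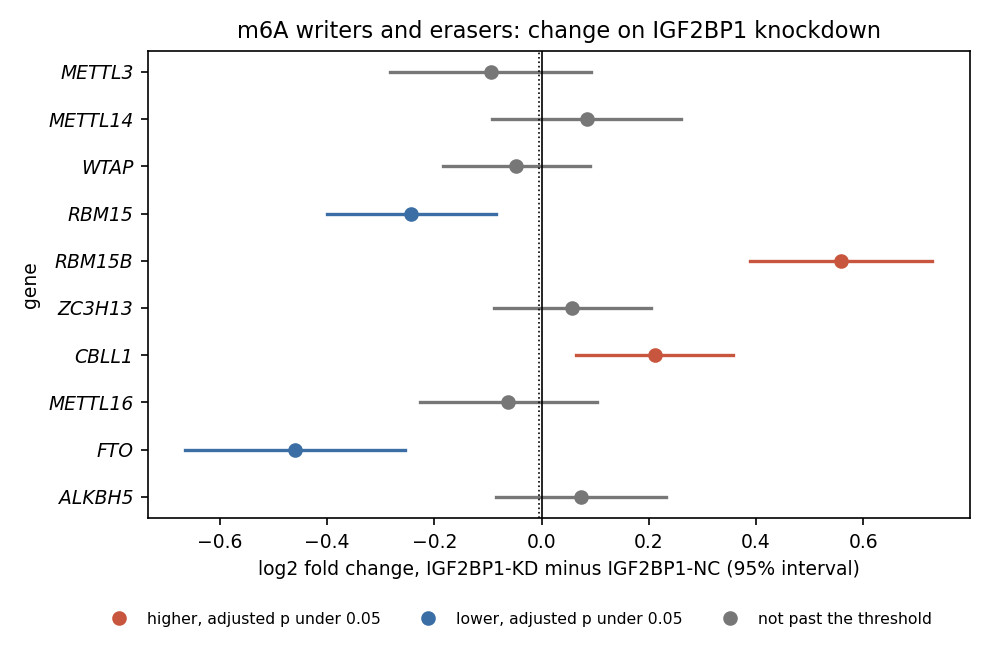
Log2 fold change (IGF2BP1-KD minus IGF2BP1-NC, x axis) of each of the 10 members (y axis) with its 95% interval from the edgeR fit, 3 libraries a group. The solid line marks 0 and the dotted line the median of all tested genes, -0.0048. RBM15B (0.56) and CBLL1 (0.21) lie to the right and FTO (-0.46) and RBM15 (-0.24) to the left of 0 with their whole interval, and the intervals of the other 6 members include 0.

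Levels of different genes were compared per length, as FPKM, the count divided by the gene length and the library total. In IGF2BP1-NC cells METTL3 had the highest mean FPKM, 33.9 ± 2.58 (SD, n = 3), followed by WTAP with 29.0 ± 1.58 and ALKBH5 with 28.7 ± 1.99, whose ranges overlapped each other. RBM15 stood apart from its neighbours at 16.6 ± 0.906 FPKM. RBM15B (9.17 ± 0.767), CBLL1 (8.98 ± 0.469), METTL14 (8.72 ± 0.360) and METTL16 (8.41 ± 0.311) formed a run in which each neighbour overlapped the next. ZC3H13 followed at 6.04 ± 0.366 and FTO was lowest at 1.65 ± 0.150 FPKM, both apart from the gene above them. The order was the same in IGF2BP1-KD cells except that ALKBH5 stood above WTAP.

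This order depends on the gene length behind the deposited FPKM. Those lengths were recovered from the files, and for WTAP, CBLL1 and ZC3H13 they were 5056, 9206 and 13144 bases, where the annotated main mRNA (the MANE Select transcript of GENCODE release 44) has 2105, 3987 and 8024 bases. For METTL14 the length was 3554 bases, and the annotated mRNA, with its long 3′ untranslated end, has 6642. With the annotated lengths, a choice made after seeing the data, WTAP was highest at 69.7 FPKM, CBLL1 rose to 20.7 and METTL14 fell to 4.67, while FTO stayed lowest at 2.36 (16566 bases in the files, 11573 annotated). Fold changes of a gene between the groups do not depend on the length.

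**Figure D2:**
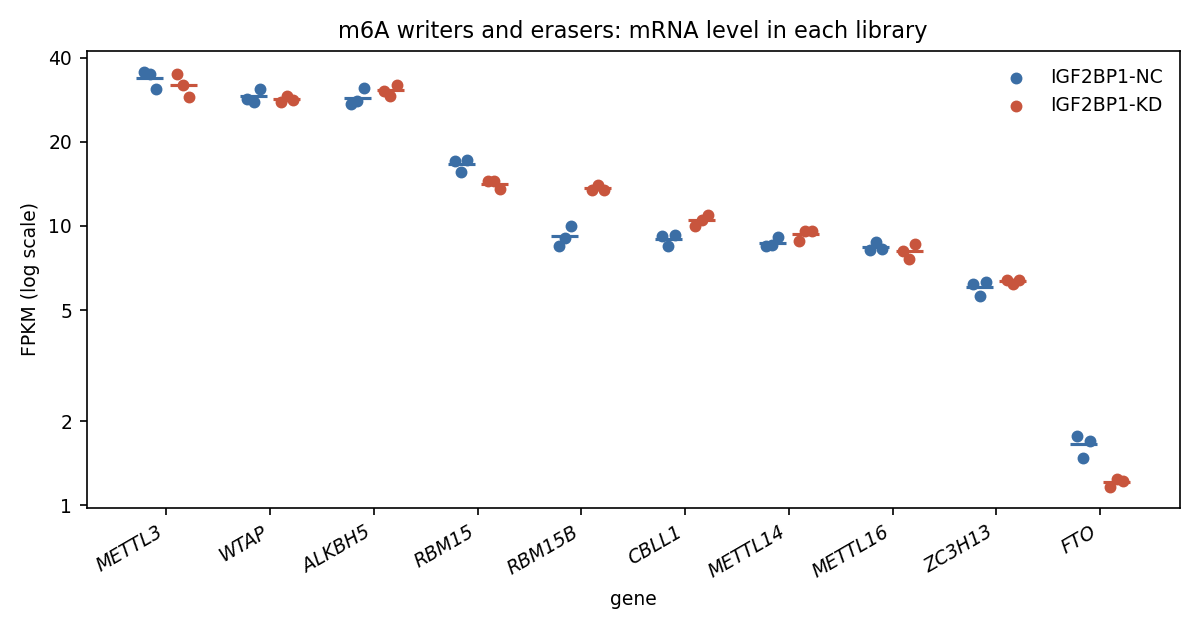
FPKM (y axis, log scale) of the 10 members (x axis, ordered by the IGF2BP1-NC mean) in each library, with a bar at the mean of 3 libraries. The 3 knockdown libraries lie above the 3 control libraries for RBM15B and CBLL1 and below them for RBM15 and FTO.

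RBM15B and RBM15, paralogous RNA-binding proteins that bring the complex to its substrates, changed in opposite directions. RBM15B (NCBI gene 29890) is a gene with 1 exon on the plus strand of chromosome 3 in GRCh38 (51391285 to 51397908). It had 976, 1045 and 1203 counts in the control libraries and 1595, 1573 and 1553 counts in the knockdown libraries. Every IGF2BP1-KD library stood above every IGF2BP1-NC library, and in FPKM the means were 9.17 ± 0.767 and 13.6 ± 0.347 (SD, n = 3 each). The log2 fold change of RBM15B was 0.56 (standard error 0.077, interval 0.39 to 0.73, adjusted p = 0.000550 by the edgeR test), a rise of 47.3%. RBM15B was the member with the smallest adjusted p, and 84.9% of all tested genes had a smaller absolute log2 fold change. The call held in all 16 alternatives tried, including each library left out in turn, with log2 fold changes from 0.50 to 0.63.

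RBM15 (NCBI gene 64783) has 3 exons in its main transcript, on the plus strand of chromosome 1 between 110338506 and 110346681. It had 1016, 932 and 1069 counts in the IGF2BP1-NC and 889, 839 and 807 counts in the knockdown libraries. The groups did not overlap, with the 3 knockdown libraries at the lower end. The log2 fold change was -0.24 (standard error 0.072, interval -0.40 to -0.085, adjusted p = 0.0270 from the same edgeR test), a level that fell by 15.5%. This call was the less stable of the pair. The adjusted p of RBM15 rose to 0.0860 without IGF2BP1-NC library 3, and to 0.0597, 0.0673 and 0.0927 without IGF2BP1-KD libraries 1, 2 and 3.

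Within a library the ratio of the paralogs is free of any scaling between libraries. RBM15B stood at 0.496, 0.579 and 0.581 times the FPKM of RBM15 in the control libraries and at 0.927, 0.969 and 0.994 times in the knockdown libraries. By these FPKM values RBM15 was the more abundant paralog in control cells, and in knockdown cells the levels were close to equal. RBM15B shares exonic bases with DCAF1 (given below), and the part of read assignment there in this order was not tested. The log2 ratio differed by 0.81, which is a 1.75-fold change, with SDs of 0.13 and 0.051 in the groups. An exact permutation test (two-sided) gave p = 0.1, the smallest p that 3 libraries against 3 allow, and 0.2 after adjustment over the 4 ratios tested. RBM15B made up 35.5% ± 2.05 of the summed FPKM of the pair in IGF2BP1-NC and 49.1% ± 0.885 in IGF2BP1-KD cells (SD, n = 3 each), while the sum itself was 25.8 ± 1.31 and 27.8 ± 0.795 FPKM. The longest stretch that the annotated mRNAs of the pair share without a mismatch is 16 bases.

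**Figure D3:**
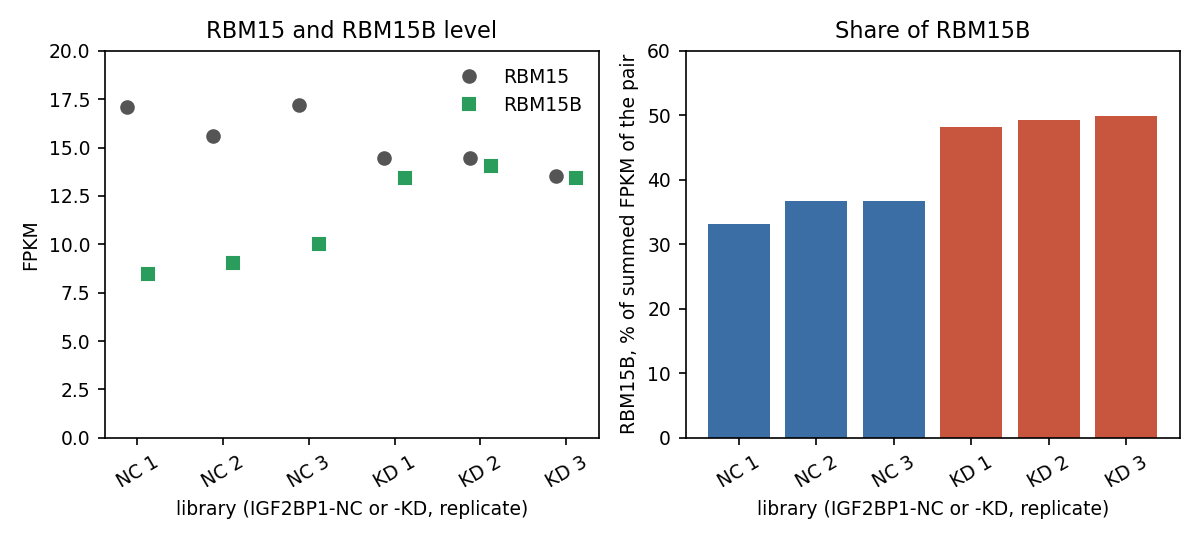
Left, FPKM (y axis from 0) of RBM15 (circles) and RBM15B (squares) in each of the 6 libraries (x axis). Right, RBM15B as a percent of the summed FPKM of the pair in each library, 33.2% to 36.8% in IGF2BP1-NC and 48.1% to 49.9% in knockdown libraries.

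The upstream sequence of RBM15B, the member with the smallest adjusted p, is shown because RBM15B and RBM15 were the only members with the E-box CACGTG in the window searched. The windows are the 250 bases before the start site of each RefSeq entry (GRCh38.p14), where all 10 members matched an entry. For RBM15, WTAP, CBLL1, FTO and ALKBH5 they lie inside the gene span given here, which starts at the outermost annotated transcript, and those of METTL3, ZC3H13 and METTL16 reach a few bases into it. The RBM15 window is within an annotated untranslated exon of a longer transcript, and is therefore not printed. The sequence is given 5′ to 3′ on the strand of the gene, and capitals mark the E-box. It was present in 6.34% of all 35116 promoter entries. The CCAAT box, searched as CCAAT and ATTGG so that both strands are covered, was present in 32.0% of them. CACGTG reads the same on both strands and cannot overlap a CCAAT box.
RBM15B, chr3:51391035-51391284, plus strand: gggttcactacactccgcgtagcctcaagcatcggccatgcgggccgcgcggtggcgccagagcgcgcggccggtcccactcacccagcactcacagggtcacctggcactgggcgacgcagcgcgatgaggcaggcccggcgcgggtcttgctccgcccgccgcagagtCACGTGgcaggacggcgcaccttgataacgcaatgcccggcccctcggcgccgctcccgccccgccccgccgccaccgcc

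The RBM15 window holds 1 E-box and 4 CCAAT boxes at a GC content of 51.6%, and the RBM15B window holds 1 E-box and no CCAAT box at a GC content of 74.8%. Over the members, CCAAT was found for 6 of 10 genes and the GC box GGGCGG (searched also as CCGCCC) for 5 of 10, beside 42.6% of all promoter entries. CGGAAG, searched also as CTTCCG, was found for 5 of 10 genes (METTL3, METTL14, WTAP, ZC3H13 and CBLL1), beside 16.5% of all entries. The 10 members had 11 windows, and a gene was counted if any of its windows matched, while the shares are of single entries. The shares were not matched for GC content, whose median over all entries was 58.0%. A GC box can share up to 2 bases with a CCAAT box. The erythroid GATA motif, searched as GATAAG and CTTATC, was found in the windows of 0 members and in 5.65% of all entries. Such matches describe the letters of the window and say nothing of a factor bound there.

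CBLL1, the E3 ubiquitin ligase that joins the regulatory part of the complex, was the other member that was higher. CBLL1 (NCBI gene 79872) has 6 exons on the plus strand of chromosome 7, between 107743073 and 107761667. It had 1471, 1354 and 1546 counts in the control libraries and 1646, 1630 and 1753 in the knockdown libraries, again without overlap between the groups. The log2 fold change was 0.21 (standard error 0.067, interval 0.065 to 0.36, adjusted p = 0.0354 from the same edgeR test), a rise of 15.7%. The call of CBLL1 was lost without IGF2BP1-NC library 2 (adjusted p = 0.116, edgeR) and without IGF2BP1-KD libraries 1, 2 or 3 (0.0526, 0.104 and 0.113). With limma on log2(FPKM + 1) its adjusted p was 0.0512.

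The catalytic core did not pass the test. METTL3 (NCBI gene 56339, chromosome 14 from 21498133 to 21511342, minus strand, 11 exons) had 1248, 1235 and 1132 counts in IGF2BP1-NC and 1267, 1085 and 1021 counts in knockdown libraries. The ranges overlapped. IGF2BP1-KD library 1 had the most counts of all 6, but by CPM it had 70.9, below IGF2BP1-NC libraries 1 and 2 (71.2 and 71.7). Its log2 fold change was -0.095 (interval -0.28 to 0.093, adjusted p = 0.440 from the same edgeR test), so a fall of more than 17.7% or a rise of more than 6.63% lies outside the interval. METTL14 (NCBI gene 57721, chromosome 4 from 118685392 to 118715433, plus strand, 11 exons) had 523, 528 and 588 counts against 562, 574 and 591, with a log2 fold change of 0.084 (interval -0.092 to 0.26, adjusted p = 0.468, edgeR). The groups overlapped for METTL14 as well.

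The transcripts of the heterodimer partners were compared as the ratio of METTL3 to METTL14 FPKM, which does not measure the balance of the proteins. The ratio was 4.19, 4.11 and 3.38 in the control libraries and 3.96, 3.32 and 3.04 in the knockdown libraries, which overlapped. The log2 ratio differed by -0.18 (exact permutation test, two-sided, p = 0.2, adjusted p = 0.267 over the 4 ratios). The size of the ratio itself rests on the lengths behind the FPKM.

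WTAP, which tethers the heterodimer to nuclear speckles, and ZC3H13, a zinc finger protein that anchors the regulatory part in the nucleus, did not pass the test either. WTAP (NCBI gene 9589, chromosome 6 from 159725585 to 159756319, plus strand, 8 exons) had 2497, 2447 and 2820 counts in IGF2BP1-NC and 2511, 2482 and 2476 in knockdown libraries, and was the member with the most counts. Its log2 fold change of -0.047 had the narrowest interval of the 10, from -0.18 to 0.090 (adjusted p = 0.606, edgeR). ZC3H13 (NCBI gene 23091, chromosome 13 from 45954465 to 46052759, minus strand, 19 exons) had 1411, 1287 and 1498 counts against 1500, 1377 and 1465, a log2 fold change of 0.057 (interval -0.089 to 0.20, adjusted p = 0.558, edgeR). For both genes the groups overlapped. Over the 7 members of the complex, the summed FPKM was 112 ± 2.10 in IGF2BP1-NC and 114 ± 2.79 in IGF2BP1-KD cells (SD, n = 3 each), a difference smaller than the SD of the knockdown libraries. The sum leaves out VIRMA, which is not among the members, and its size rests on the lengths behind the FPKM.

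METTL16 methylates the U6 small nuclear RNA and hairpins at the end of the MAT2A mRNA, which encodes an enzyme that makes S-adenosylmethionine, the methyl donor. METTL16 (NCBI gene 79066, chromosome 17 from 2405562 to 2511891, minus strand, 10 exons) had 839, 904 and 887 counts in the IGF2BP1-NC and 859, 761 and 889 in the knockdown libraries. The groups overlapped, and the log2 fold change was -0.062 (interval -0.23 to 0.10, adjusted p = 0.573, edgeR). Against METTL3, its log2 FPKM ratio differed by 0.034 between the groups (exact permutation test, two-sided, p = 0.8, adjusted p = 0.8). Its substrate MAT2A fell from 215 ± 6.07 FPKM to 175 ± 16.3 (SD, n = 3 each), a log2 fold change of -0.31 (adjusted p = 0.00925, edgeR).

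The erasers differed from each other. FTO (NCBI gene 79068) has 9 exons on the plus strand of chromosome 16, between 53701692 and 54158512. It had 507, 428 and 512 counts in the control libraries and 345, 349 and 352 counts in the knockdown libraries, so that every knockdown library was below every control library. The log2 fold change of FTO was -0.46 (standard error 0.094, interval -0.66 to -0.25, adjusted p = 0.00466 from the same edgeR test), a level that fell by 27.3%. Of all tested genes, 80.2% had a smaller absolute log2 fold change. FTO kept its call with each library left out in turn, with an adjusted p of at most 0.0242. It was lost in 1 of the other settings, limma on log2(FPKM + 1) without a filter on low values (adjusted p = 0.0503), where the same scale with the filter gave 0.0495.

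ALKBH5 (NCBI gene 54890, chromosome 17 from 18183078 to 18209954, plus strand, 4 exons) had 1624, 1670 and 1929 counts in IGF2BP1-NC and 1871, 1688 and 1908 in knockdown libraries. These overlapped, and the log2 fold change was 0.073 (interval -0.085 to 0.23, adjusted p = 0.483, edgeR). The ratio of ALKBH5 to FTO by FPKM was 15.5, 18.8 and 18.2 in the control libraries and 26.2, 23.3 and 26.1 in the knockdown libraries, a 1.45-fold difference without overlap (exact permutation test, two-sided, p = 0.1, the smallest possible here, adjusted p = 0.2). ALKBH5 was thus the more abundant eraser transcript in every library, also with the annotated mRNA lengths (31.2 against 2.36 FPKM in IGF2BP1-NC). FTO made up 5.45% ± 0.554 of the summed eraser FPKM in IGF2BP1-NC and 3.82% ± 0.247 in IGF2BP1-KD cells (SD, n = 3 each), and the sum was 30.4 ± 2.02 and 31.7 ± 1.39 FPKM.

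The shRNA targets are shown because the seed of a hairpin can pair with transcripts other than its target. The 21-base target sequences of IGF2BP1 in the supplementary methods are written 5′ to 3′, with capitals for the 7 bases that pair with the seed (bases 2 to 8) of the guide strand.
IGF2BP1 shRNA target 1: cagggaagaatctATGGCAAa
IGF2BP1 shRNA target 2: acagtagagaactGTGAGCAa

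Both sequences were found in the annotated IGF2BP1 mRNA. In the members' mRNAs the longest stretch shared with target 1 was 11 bases and with target 2 was 9 bases. The seed site of target 1 was present in the 3′ untranslated region of METTL14, and that of target 2 in those of FTO, ZC3H13 and METTL16. RBM15 held neither. Such sites were found in 12.2% and 11.7% of the 11447 tested genes with an annotated 3′ end. These shares were not matched for the length of the 3′ untranslated region. That region has 10026 bases in FTO, 5128 in METTL14, 3921 in METTL16 and 2662 in ZC3H13. It has 410 bases in RBM15, and 3836 in RBM15B, which also held neither site. FTO was lower and the other 3 genes with a site did not pass the test, and the part of these sites in the level of FTO was not tested.

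Overlapping genes bear on the members because, although the libraries were made with a stranded kit, the counting is not stated to use strand. Exons of METTL3 share 388 bases with TOX4, those of WTAP 437 bases with SOD2 and those of RBM15B 1325 bases with DCAF1, each on the opposite strand. TOX4, SOD2 and DCAF1 did not pass the test themselves, with log2 fold changes of 0.16, -0.028 and -0.031 (adjusted p = 0.0876, 0.750 and 0.817, edgeR). DCAF1 had at most 1355 counts in a library. RBM15, CBLL1, FTO, ALKBH5 and ZC3H13 share between 175 and 442 exonic bases with noncoding genes or a pseudogene on the opposite strand that are not among the genes of the table.

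The letters of the m6A consensus were counted in the members' own mRNAs, since the writers' transcripts can carry the mark as well. GGAC, the core of the consensus, occurred 6.96 times per kilobase in ALKBH5, 6.23 in RBM15 and 5.59 in RBM15B, the highest of the members. It occurred 2.51 times per kilobase in FTO and 2.26 in CBLL1, and the median of 11447 tested genes was 3.67. The 4 members that changed thus lay on both sides of the median. Whether any of these sites is methylated or bound in these cells was not analysed here.

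Other genes of the m6A pathway or of the same enzyme families, called pathway genes here, were read from lists. The lists were other methyltransferases and their partners, other AlkB dioxygenases, methyl donor enzymes, and readers. A place on the first lists does not mean that a gene writes or erases m6A on mRNA. Of 26 such genes, all tested, 1 was higher and 7 were lower in IGF2BP1-KD cells, which is 8 calls beside the 28.2% of all genes. The 7 genes listed as other methyltransferases and their partners gave 0 calls by edgeR, also at an unadjusted p under 0.05. Among them VIRMA, the scaffold of the regulatory part of the complex, had 124 ± 7.72 CPM in IGF2BP1-NC and 123 ± 5.47 CPM in IGF2BP1-KD (SD, n = 3 each), with a log2 fold change of -0.013 (interval -0.16 to 0.13). Of the 7 other AlkB dioxygenases, ALKBH4 was lower, with a log2 fold change of -0.42 (adjusted p = 0.0130, edgeR). The AlkB members not called ranged from -0.13 for ALKBH8 to 0.26 for ALKBH3 in log2 fold change.

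Of the 3 genes of the methyl donor cycle, MAT2A and AHCY were lower. AHCY, which clears the S-adenosylhomocysteine left after methylation, fell from 82.8 ± 2.74 to 66.0 ± 4.08 FPKM (SD, n = 3 each), a log2 fold change of -0.34 (adjusted p = 0.00386, edgeR). MAT2B, the regulatory subunit beside MAT2A, had a log2 fold change of 0.13 (adjusted p = 0.207, edgeR).

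Of the 9 readers, YTHDF1 was higher and YTHDC1, IGF2BP3, HNRNPA2B1 and HNRNPC were lower. YTHDF1, a cytoplasmic reader, had a log2 fold change of 0.39 (adjusted p = 0.00654, edgeR), and YTHDC1, the nuclear YTH reader, one of -0.30 (adjusted p = 0.00488). The values of HNRNPA2B1, HNRNPC and IGF2BP3 were -0.27, -0.28 and -0.22. YTHDF2, YTHDF3, YTHDC2 and IGF2BP2 did not pass the test, with log2 fold changes from 0.0046 to 0.12.

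**Figure D4:**
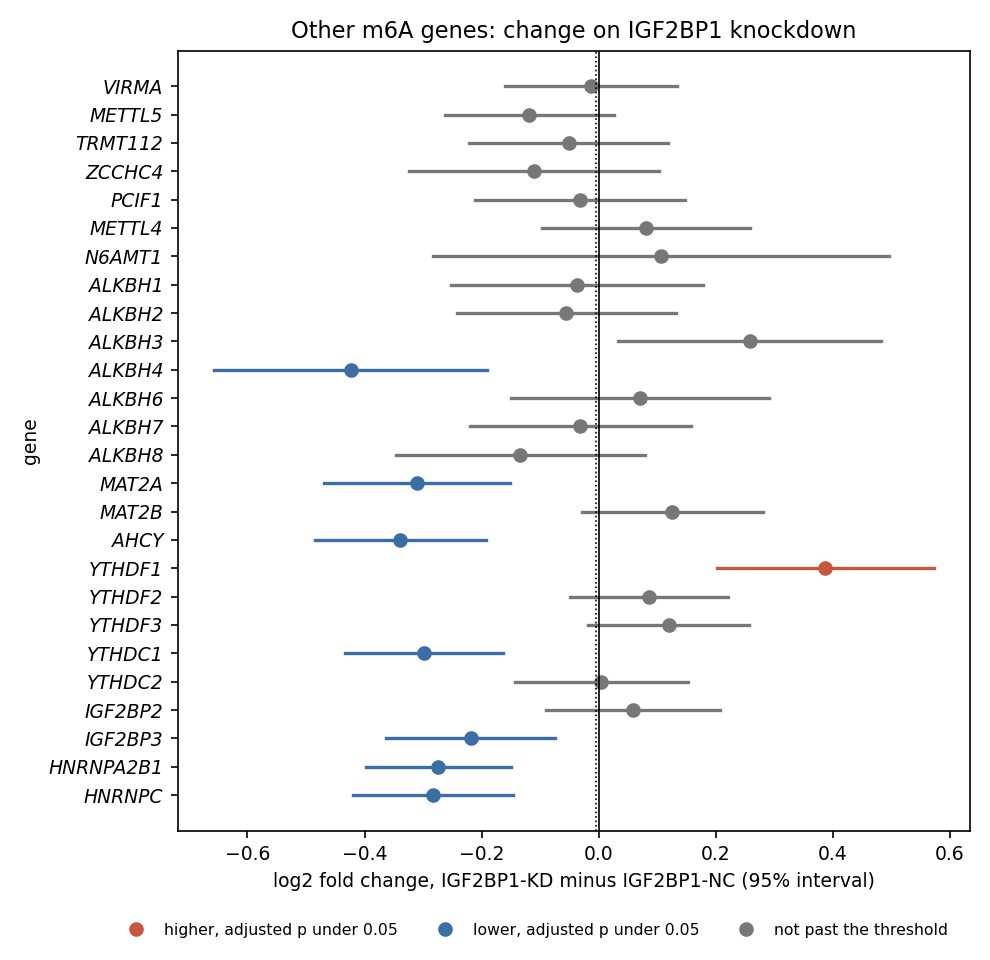
Log2 fold change (IGF2BP1-KD minus IGF2BP1-NC, x axis) with its 95% interval for 26 other genes of the m6A pathway or of the same enzyme families (y axis), 3 libraries a group. The solid line marks 0 and the dotted line the median of all tested genes, -0.0048. The values run from -0.42 for ALKBH4 to 0.39 for YTHDF1, and those of VIRMA to N6AMT1 all have intervals that include 0.

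The genes whose levels followed RBM15B most closely over the 6 libraries were listed as a description. Among 9274 other genes whose mean log2 CPM was 3 or more, the highest Pearson's r of log2 CPM with RBM15B was that of CAPRIN1 (0.9997), followed by PIP4K2A, OAT, SLC4A1 and PDCD7 (0.9974). The 6 points share the difference between the groups, and 793 genes had an r above 0.9. SLC4A1, the anion exchanger of red cells, had a log2 fold change of 2.50, and CAPRIN1, an RNA-binding protein of stress granules, one of 0.21.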

How the data were processed

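RNA of NCI-H929 cells labelled IGF2BP1-NC or IGF2BP1-KD (3 libraries each, grouped by their titles) was sequenced. Per the labels and supplementary methods, the authors used Trimmomatic for trimming, HISAT2 for mapping (GRCh38) and HTSeq-count for the raw counts per gene they deposited. The deposited FPKM values are named as from Cufflinks, and were found to be each count over a gene length and a library total. Libraries were made with a stranded mRNA-seq kit. Tool versions, the strand option of the counting and the annotation release are not given in the sources used here, so the assignment of reads in overlapping genes is unknown. Among the FPKM rows, 27 symbols had become dates, and rows were matched by order and gene number.

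Counts of all genes were fitted in R 4.3.3 with edgeR 4.0.16 (TMM, filterByExpr, robust quasi-likelihood test, two-sided, Benjamini-Hochberg over 11994 genes). The common biological coefficient of variation was 9.55%. Alternatives used DESeq2 1.42.0, limma 3.58.1 (voom, or FPKM with a pseudocount of 1 or 0.1 and a mean of at least 1), other scalings and filters, the replicate number as a block, and each library left out. Log2 FPKM ratios of 4 gene pairs were compared by exact permutation over libraries (scipy 1.17.1). Marker, pathway and motif lists, and the members, were chosen with earlier results of these data known. The named genes are the members, IGF2BP1, the called genes of the pathway lists and the 5 genes most correlated with the member of smallest adjusted p. Markers, VIRMA, overlapping genes and uncalled genes given as the ends of a range were named beyond this rule. Gene positions and mRNAs are from GENCODE release 44 (GRCh38).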

Additional observations from a re-analysis of the deposited data

How the results depend on the processing

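RBM15B kept its direction and its call under every alternative, with log2 fold changes from 0.50 to 0.63, and FTO kept its direction from -0.52 to -0.26. The -0.26 is on the log2(FPKM + 1) scale, where the pseudocount of 1 is large beside the FTO level (1.65 FPKM in IGF2BP1-NC). With a pseudocount of 0.1 the value was -0.42. IGF2BP1 kept its call in all 16, with values from -1.90 to -1.77. The number of members called higher fell from 2 to 1 with limma on log2(FPKM + 1), log2(FPKM + 0.1) or log2(FPKM + 1) without a filter, and with the replicate block, and was 1 to 2 with each library left out. The number called lower fell from 2 to 1 with the replicate block and to 0 with limma on log2(FPKM + 1) without a filter, and was 1 to 2 with each library left out. The calls lost were those of CBLL1 and RBM15, and in the unfiltered FPKM fit also that of FTO, and the cause was not tested. With the replicate block the adjusted p was 0.0543 for CBLL1 and 0.0534 for RBM15 (edgeR). The log2 fold changes there were 0.21 for CBLL1 and -0.24 for RBM15, as in the main fit. The deviations of same-numbered libraries correlated at -0.052, 0.036 and -0.11. Whether libraries of the same number shared a culture or a batch is not given in the labels and was not tested. WTAP changed sign without IGF2BP1-NC library 3, to 0.0060, within its interval, and its range with each library left out was -0.071 to 0.0060. At an unadjusted p under 0.05, the number of other pathway genes called higher rose from 1 to 2, and no member was added. Values near 0 also changed sign. The median over the members, 0.0050, was -0.0042 without a filter on low counts, and -0.020 and -0.0047 without IGF2BP1-NC libraries 1 and 2. The log2 METTL16 to METTL3 ratio difference, 0.034, was -0.062 with group medians, and -0.023 and -0.078 without IGF2BP1-NC library 1 and IGF2BP1-KD library 3. With 428 to 2820 counts per control library, the standard errors of the members' log2 fold changes were 0.062 to 0.094, which limits what could be seen of smaller changes.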
